A study of Homo sapiens with 20 samples.

Results

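The secreted Wnt antagonists of the Dickkopf (DKK) family, the secreted Frizzled-related proteins (SFRP1, SFRP2, FRZB, SFRP4 and SFRP5) and WIF1 were followed across knockdowns of APC, beta-catenin and TAZ. The 10 genes were taken by name, as every probe set annotated to them, which gave 24 of the 54675 probe sets on the array and 10 of the 19775 genes tested. RNA came from MII cells, also called MCF10-T1k, a human mammary epithelial cell line transformed with RAS, grown in serum-containing medium with insulin, EGF, hydrocortisone and cholera toxin. The cells were transfected, with the RNAi MAX reagent, with siRNA against APC and TAZ (siAPC/siTAZ), APC alone (siAPC), beta-catenin and TAZ (sibcat/siTAZ), beta-catenin alone (sibcat) or GFP (control). The labels give 4 biological replicates a group, named A to D, on 1 array each. All groups share 1 cell line and the transfection itself, and none of them received TAZ siRNA alone. By its title the series is about TAZ in Wnt signalling, and the question here is how the antagonists changed with each depletion and with the added loss of TAZ.

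Wnt ligands bind Frizzled receptors and the co-receptors LRP5 and LRP6, which leads to the accumulation of beta-catenin and to transcription with TCF/LEF factors. APC belongs to the complex that directs beta-catenin to destruction. TAZ, encoded by WWTR1, acts in the nucleus as a partner of TEAD factors. DKK proteins act outside the cell on LRP5 and LRP6, with Kremen proteins as further receptors, whereas SFRP proteins and WIF1 bind Wnt ligands directly. DKK1 and DKK2 are known as genes that beta-catenin and TCF factors can activate, and loss of SFRP1 expression is common in breast cancer.

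Values are log2 signals from RMA, a summary over the probes of a probe set, so a difference of 1 is a factor of 2. Differences were tested with limma in 1 fit to all 20 arrays, and a gene counted as changed (called) where its adjusted p was below 0.05. Array medians lay between 5.07 and 5.11. Each siRNA lowered its target: APC fell by 0.88 in siAPC cells, and CTNNB1, the beta-catenin gene, fell by 1.33 in sibcat cells, both against control. WWTR1 fell by 2.66 in siAPC/siTAZ against siAPC cells and fell by 2.21 in sibcat/siTAZ against sibcat cells. Without TAZ siRNA, WWTR1 fell by 0.41 in siAPC and by 0.43 in sibcat cells against control (limma adjusted p = 2.96e-06 and 2.00e-06). The first knockdown was also deeper where TAZ siRNA was added: APC averaged 6.89 in siAPC/siTAZ and 7.34 in siAPC cells (adjusted p = 5.14e-07), and CTNNB1 averaged 9.20 in sibcat/siTAZ and 10.60 in sibcat cells (adjusted p = 1.50e-14). CTNNB1 also rose by 0.28 in siAPC/siTAZ against siAPC cells (adjusted p = 8.63e-05). APC rose by 0.22 in sibcat/siTAZ against sibcat cells (adjusted p = 0.00308). Both comparisons for TAZ siRNA therefore differ in APC and beta-catenin transcript as well as in TAZ, and the part of this in the results was not tested. Of 8 mammary epithelial markers measured, 7 lay above the array median on all arrays (KRT5, KRT14, KRT8, KRT18, CDH1, EPCAM and ITGB4). The labels do not say whether replicates came from separate cultures. The p-values then measure the spread between these samples, which may be technical, and the number of arrays limits the precision.

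The data show 4 genes that moved, each with its own pattern over the 5 groups, and 6 whose signals stayed low. DKK1 rose after either single depletion and fell below the control when TAZ siRNA was added to either. DKK2 rose in both groups with APC siRNA, further with TAZ siRNA than without it, and was not called in either group with beta-catenin siRNA against control. DKK3 rose after both single depletions, and the added TAZ siRNA lowered it in APC-depleted cells. SFRP1 fell after APC depletion and rose when TAZ siRNA was added to either depletion. The plot of signals by array shows these 4 genes.

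**Figure D1:**
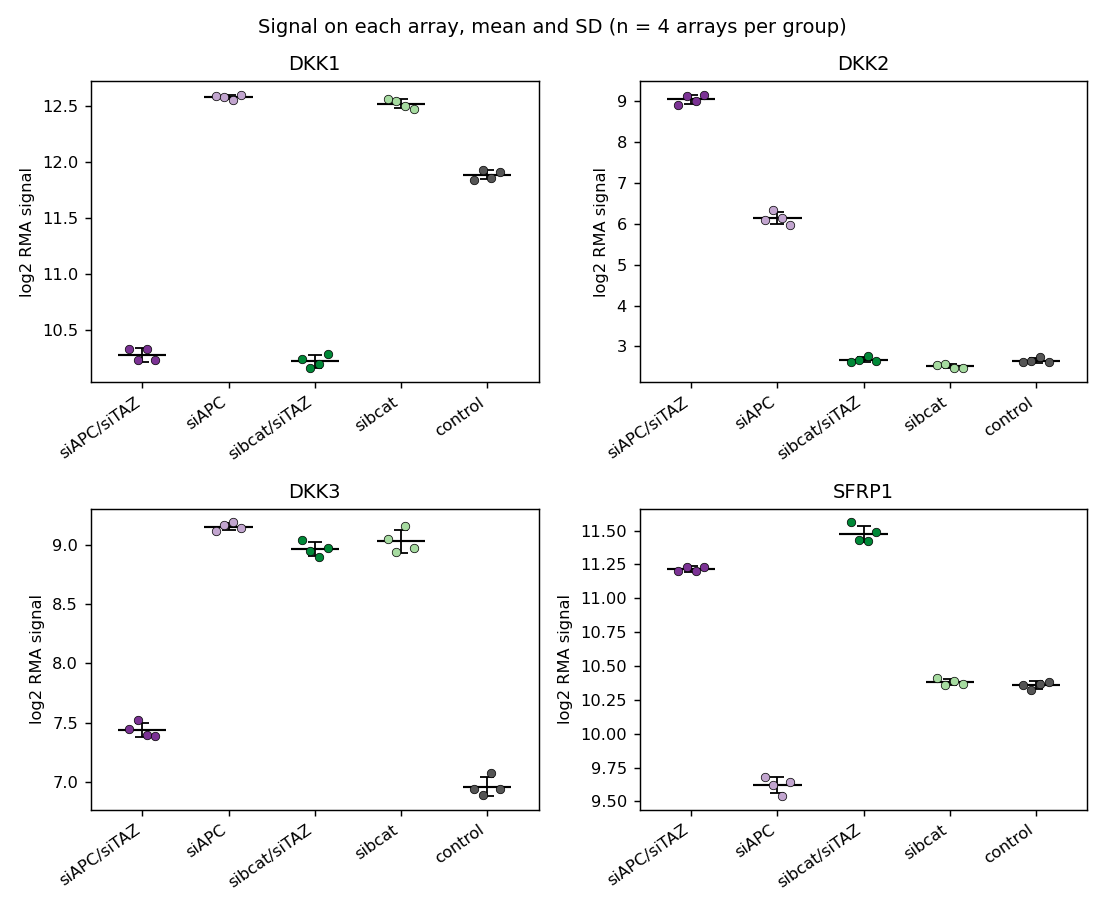
Log2 RMA signal (vertical axis, scaled to each gene) of DKK1, DKK2, DKK3 and SFRP1 on every array (points) in the 5 groups (horizontal axis), with the mean and SD of 4 arrays as a bar and whiskers. DKK1 is lowest in both groups with TAZ siRNA, DKK2 is high in both groups with APC siRNA, DKK3 is low in siAPC/siTAZ and control cells, and SFRP1 is highest in both groups with TAZ siRNA.

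DKK1, which blocks Wnt signalling by binding LRP5 and LRP6, is read by 1 probe set (204602_at). The bases before its transcription start are shown because DKK1 is a known beta-catenin/TCF target and here moved with TAZ siRNA. They are the 250 bases at chr10:52314031-52314280 on the plus strand (GRCh38.p14, RefSeq), with the matches to a TCF/LEF motif (CTTTGAA) and to the TEAD motif (GGAATG) in capitals.
DKK1: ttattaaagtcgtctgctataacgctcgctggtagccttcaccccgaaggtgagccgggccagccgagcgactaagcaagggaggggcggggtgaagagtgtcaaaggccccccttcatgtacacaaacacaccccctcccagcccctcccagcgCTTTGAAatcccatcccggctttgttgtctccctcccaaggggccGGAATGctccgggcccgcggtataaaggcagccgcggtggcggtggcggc
The TCF/LEF match lies 95 to 89 bases and the TEAD match 50 to 45 bases before the start, both on the printed strand. The motifs were searched on both strands as CTTTGAT or CTTTGAA for TCF/LEF, GGAATG for TEAD, and TGAGTCA or TGACTCA for AP-1. In windows of the same length before 27305 starts, 6.0% held the TCF/LEF forms, 11.9% the TEAD form and 4.2% the AP-1 forms. Of the 6 antagonist genes with a window in the RefSeq table (DKK1, SFRP2, FRZB, SFRP4, SFRP5 and WIF1), DKK1 alone held any of these letters, and the others were genes of low signal. DKK2, DKK3, DKK4 and SFRP1 had no window, so the genes that moved cannot be compared with the low ones in this. A match of letters is a description of the DKK1 window and shows no binding.

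DKK1 had signals of 10.33, 10.23, 10.33 and 10.23 in siAPC/siTAZ cells and of 12.59, 12.58, 12.55 and 12.60 in siAPC cells (replicates A to D). It had 10.24, 10.16, 10.20 and 10.29 in sibcat/siTAZ cells and 12.56, 12.54, 12.50 and 12.47 in sibcat cells. Control cells had 11.84, 11.93, 11.86 and 11.91. All arrays of both single depletions lay above all control arrays, and all arrays with TAZ siRNA lay below them. DKK1 rose by 0.70 ± 0.04 in siAPC cells over control (log2, SE, limma adjusted p = 1.56e-11, 1.62-fold). In sibcat cells it rose by 0.63 ± 0.04 over the same control arrays (adjusted p = 1.06e-10, 1.55-fold). Added TAZ siRNA lowered DKK1 by nearly the same amount in both backgrounds. The change was -2.30 ± 0.04 in siAPC/siTAZ against siAPC cells (adjusted p = 2.73e-19) and -2.29 ± 0.04 in sibcat/siTAZ against sibcat cells (adjusted p = 6.49e-19). These are signals 4.92-fold and 4.91-fold lower with TAZ siRNA. The difference between the 2 changes was -0.01, with a 95% interval from -0.12 to 0.11 (adjusted p = 0.965). Against control, DKK1 fell by 1.60 in siAPC/siTAZ cells (adjusted p = 3.45e-17) and fell by 1.66 in sibcat/siTAZ cells (adjusted p = 3.15e-17). In order of level, siAPC and sibcat cells were highest and differed by 0.06 (interval -0.02 to 0.14, adjusted p = 0.262), control cells followed, and siAPC/siTAZ and sibcat/siTAZ cells were lowest and also differed by 0.06 (interval -0.02 to 0.14, adjusted p = 0.266).

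DKK2, a relative of DKK1 that also binds LRP6 and can act as an antagonist or an agonist depending on the cell, was called from the probe set with the higher mean (219908_at). Its signals were 8.90, 9.11, 9.01 and 9.15 in siAPC/siTAZ cells and 6.10, 6.33, 6.14 and 5.96 in siAPC cells. They were 2.63, 2.66, 2.78 and 2.65 in sibcat/siTAZ cells and 2.54, 2.58, 2.48 and 2.47 in sibcat cells. Control cells had 2.61, 2.65, 2.74 and 2.62. The 3 groups without APC siRNA thus lay near the bottom of the scale, well below the array medians, and both groups with APC siRNA lay far above them with no overlap. DKK2 rose by 3.48 ± 0.07 in siAPC cells over control (SE, limma adjusted p = 1.57e-18). The addition of TAZ siRNA raised it by a further 2.91 ± 0.07 (adjusted p = 2.02e-17, 7.52-fold). Against control, the rise in siAPC/siTAZ cells was 6.39 ± 0.07 (adjusted p = 3.07e-22). The deposited values carry no detection calls, and control, sibcat and sibcat/siTAZ signals of 2.52 to 2.68 may not be above background, so differences against them are differences of RMA signal and give no fold of transcript. Without APC depletion DKK2 was not called: it differed from control by -0.14 in sibcat cells (interval -0.28 to 0.00, adjusted p = 0.124) and by 0.03 in sibcat/siTAZ cells (interval -0.12 to 0.17, adjusted p = 0.806). The signal change with TAZ siRNA was 2.75 ± 0.09 larger in APC-depleted than in beta-catenin-depleted cells (adjusted p = 2.07e-13), where a fall below so low a signal may not have been readable. For comparison, the beta-catenin target AXIN2 rose by 5.30 in siAPC cells over control and by a further 0.86 with TAZ siRNA. AXIN2 fell by 0.51 in sibcat cells against control (adjusted p = 2.32e-05). With TAZ siRNA it rose by 0.33 in beta-catenin-depleted cells as well (adjusted p = 0.00205).

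The second DKK2 probe set (224199_at) did not follow this pattern. Its group means lay between 2.44 and 2.82, with 2.45 in siAPC/siTAZ, 2.82 in siAPC and 2.78 in control cells. Tested on its own, it differed by -0.37 in siAPC/siTAZ against siAPC cells (limma adjusted p = 0.00886 over 54613 probe sets), opposite to the first probe set. The rise of DKK2 rests on 219908_at, whose mean is the higher of the pair through the groups with APC siRNA: it averaged 2.66 in control cells, where 224199_at averaged 2.78.

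DKK3, the most divergent member of the family and not known for the LRP6 binding of DKK1, has 6 probe sets, of which 214247_s_at had the highest mean. On it, signals were 7.45, 7.52, 7.40 and 7.39 in siAPC/siTAZ cells and 9.12, 9.17, 9.19 and 9.14 in siAPC cells. They were 9.04, 8.95, 8.90 and 8.97 in sibcat/siTAZ cells and 9.05, 8.94, 9.16 and 8.97 in sibcat cells. Control cells had 6.94, 6.89, 7.08 and 6.94. The sibcat/siTAZ and sibcat arrays overlapped, the siAPC arrays overlapped with sibcat, and siAPC/siTAZ arrays lay between these and the control. DKK3 rose by 2.19 ± 0.05 in siAPC cells over control (SE, limma adjusted p = 2.72e-17, 4.57-fold) and by 2.07 ± 0.05 in sibcat cells over control (adjusted p = 1.15e-16, 4.19-fold). With TAZ siRNA it fell by 1.71 ± 0.05 in APC-depleted cells (adjusted p = 1.02e-15). In beta-catenin-depleted cells the difference was -0.07 (interval -0.17 to 0.04, adjusted p = 0.404), but with the mean of all 6 probe sets it was -0.23 and called (adjusted p = 0.00101). The difference between these 2 TAZ siRNA effects was -1.65 ± 0.07 (adjusted p = 4.08e-12). Against control, DKK3 was 2.00 higher in sibcat/siTAZ cells (adjusted p = 1.08e-16) and 0.48 higher in siAPC/siTAZ cells (adjusted p = 1.53e-07).

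The DKK3 probe sets shared the rises after the single depletions and differed on what TAZ siRNA did in beta-catenin-depleted cells. Tested alone, 4 of the 6 were called higher in siAPC and in sibcat cells than in control cells, and 4 were called lower with TAZ siRNA in APC-depleted cells. The other two, 207875_at and 221126_at, had group means between 2.31 and 2.60 and were not called in these comparisons. In sibcat/siTAZ against sibcat cells, 230508_at fell by 1.31 (limma adjusted p = 6.05e-11, group means 5.44 and 6.75), while 214247_s_at averaged 8.96 and 9.03 and 202196_s_at averaged 6.40 and 6.46. In siAPC/siTAZ against control cells the direction depended on the probe set: 214247_s_at was 0.48 higher (adjusted p = 4.15e-07), 230508_at fell by 0.44 (adjusted p = 9.27e-05), and the remaining 4 were not called. The larger TAZ siRNA effect in APC-depleted cells was called on 4 of the 6 probe sets, from -1.68 on 202196_s_at to -0.76 on 221127_s_at. The plot of probe sets shows this split.

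**Figure D2:**
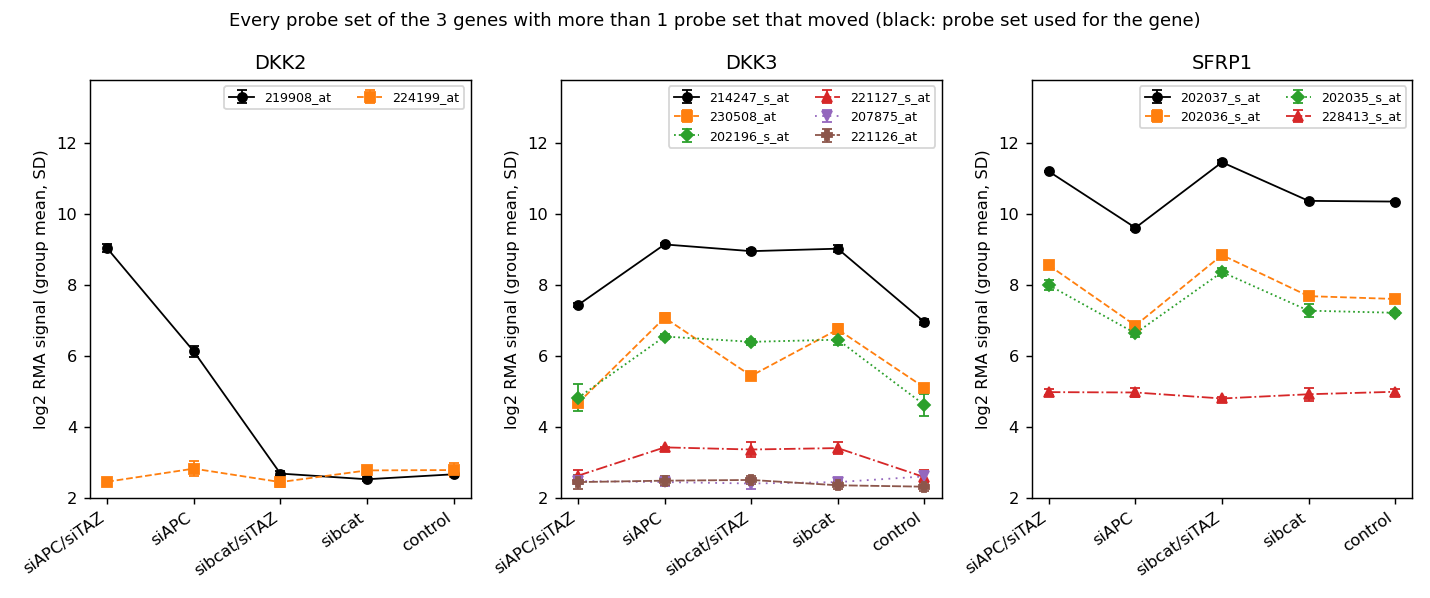
Group mean of the log2 RMA signal (vertical axis) with SD (whiskers, n = 4 arrays) for every probe set of DKK2, DKK3 and SFRP1 across the 5 groups (horizontal axis). The black line is the probe set used for the gene. Of the DKK3 probe sets, 230508_at alone drops in sibcat/siTAZ (5.44) against sibcat (6.75), the DKK2 probe set 224199_at stays between group means of 2.44 and 2.82, and the SFRP1 probe set 228413_s_at between 4.80 and 4.99.

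DKK4, an inhibitor of LRP6 like DKK1 and a known Wnt target in gut tumours, gave no called difference in any of the 9 comparisons. Its group means on 1 probe set (206619_at) were 4.13 in siAPC/siTAZ, 4.11 in siAPC, 4.00 in sibcat/siTAZ, 3.97 in sibcat and 4.04 in control cells. All groups overlapped.

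SFRP1, which binds Wnt ligands through a domain related to that of Frizzled receptors, was called from 202037_s_at. Its signals were 11.20, 11.23, 11.20 and 11.23 in siAPC/siTAZ cells and 9.68, 9.62, 9.54 and 9.64 in siAPC cells. They were 11.56, 11.43, 11.42 and 11.49 in sibcat/siTAZ cells and 10.41, 10.36, 10.39 and 10.37 in sibcat cells. Control cells had 10.36, 10.32, 10.37 and 10.38. The siAPC arrays were the lowest of all, the sibcat and control arrays overlapped, and all arrays with TAZ siRNA lay above the others. SFRP1 fell by 0.74 ± 0.04 in siAPC cells against control (SE, limma adjusted p = 3.86e-12, 1.67-fold lower). In sibcat cells it differed from control by 0.03 (interval -0.05 to 0.10, adjusted p = 0.676). Added TAZ siRNA raised it by 1.60 ± 0.04 in APC-depleted cells (adjusted p = 3.18e-17, 3.02-fold) and by 1.09 ± 0.04 in beta-catenin-depleted cells (adjusted p = 1.50e-14, 2.13-fold). The rise was 0.50 ± 0.05 larger in the APC-depleted cells (adjusted p = 5.01e-07). Both combined depletions ended above control, by 0.86 in siAPC/siTAZ (adjusted p = 2.37e-13) and by 1.12 in sibcat/siTAZ cells (adjusted p = 7.22e-15). Of the 4 probe sets, 3 were called in the same direction wherever the gene was, and the smallest of their 3 rises in siAPC/siTAZ against siAPC cells was 1.36. The exception was the test between the 2 TAZ siRNA effects, which 202035_s_at did not pass (0.28, adjusted p = 0.143). The fourth, 228413_s_at, had group means between 4.80 and 4.99 and was not called in any comparison.

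Other measures moved with TAZ siRNA, with which DKK1 fell and SFRP1 rose in both backgrounds, and DKK2 rose and DKK3 fell in APC-depleted cells. The 3' minus 5' signal of ACTB averaged 1.99 in siAPC/siTAZ and 1.57 in siAPC cells, 2.04 in sibcat/siTAZ and 1.81 in sibcat cells, and 1.83 in control cells. The mean signal of 7 fibroblast markers was 8.15 in siAPC/siTAZ and 6.62 in siAPC cells, 7.73 in sibcat/siTAZ and 6.62 in sibcat cells, and 6.89 in control cells. Of these, COL1A1, DCN and POSTN lay above the array median on all arrays, COL1A2, LUM and PDGFRA lay below it on all, and COL3A1 lay above it on some. The mean of 8 epithelial markers was 9.84 in siAPC/siTAZ and 10.30 in siAPC cells, 9.76 in sibcat/siTAZ and 10.10 in sibcat cells, and 10.60 in control cells. None of 5 endothelial and none of 3 leukocyte markers lay above the array median on all arrays, and CDH5, KDR, TEK, PTPRC and ITGAM lay below it on all. The endothelial marker PECAM1 lay above it on 19 of 20 arrays, with means of 5.74 in siAPC/siTAZ, 5.24 in siAPC, 6.73 in sibcat/siTAZ, 6.65 in sibcat and 6.54 in control cells. VWF lay above it on 7 arrays and the leukocyte marker CD3E on 14, with group means between 4.92 and 5.26. The part of these measures in the DKK1, DKK2, DKK3 and SFRP1 results was not tested.

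The other Wnt-binding antagonists stayed at low signal. SFRP2, SFRP4, SFRP5 and FRZB, which resemble SFRP1, and WIF1, which binds Wnt ligands through a domain of its own, together with DKK4, had 11 probe sets with group means from 2.41 to 4.13, all below the array medians. Over the 8 comparisons between 2 groups, the differences of these 6 genes ranged from -0.33 to 0.22, and their 95% intervals reached from -0.54 to 0.50. Of the 48 tests, 2 had an unadjusted p under 0.05 and 1 was called.

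**Figure D3:**
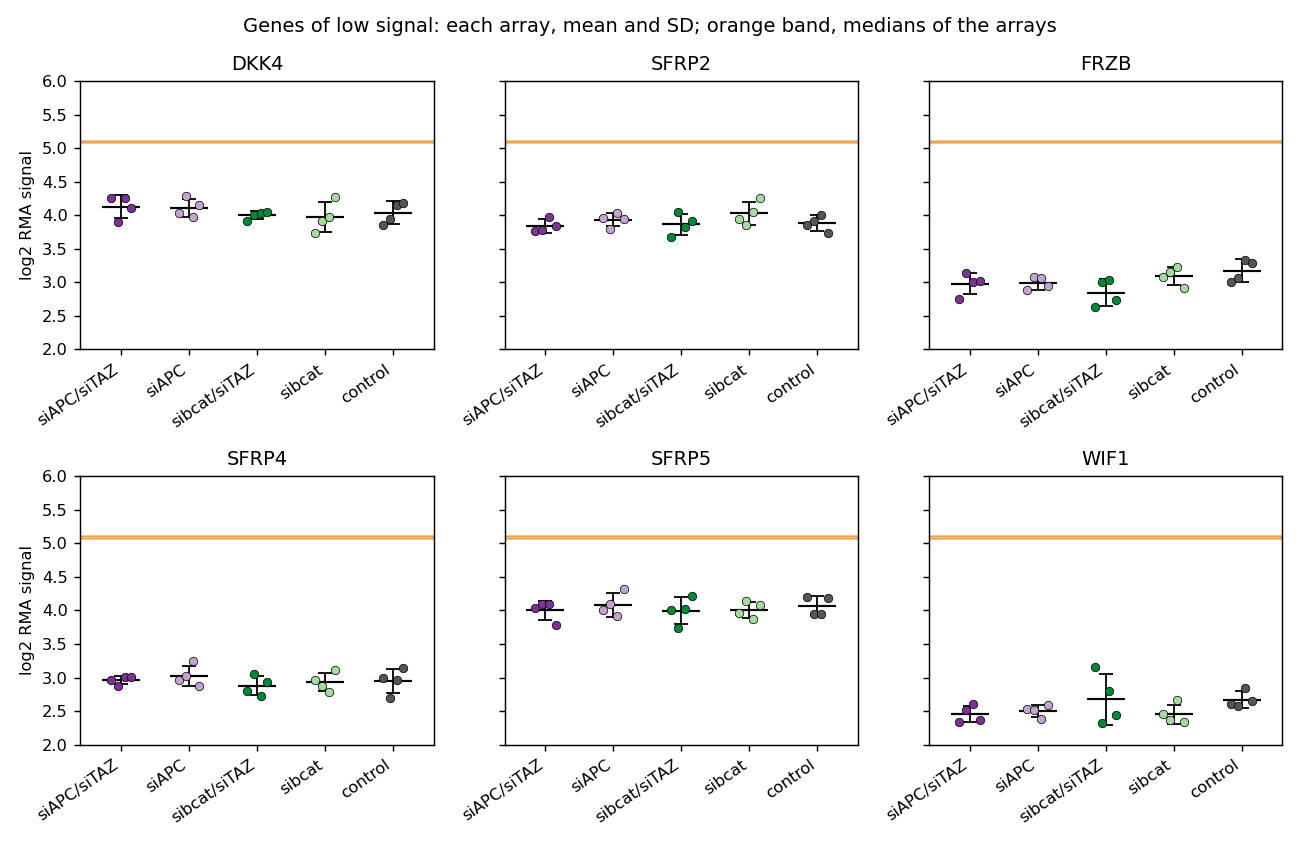
Log2 RMA signal (vertical axis) of DKK4, SFRP2, FRZB, SFRP4, SFRP5 and WIF1 on every array (points) in the 5 groups (horizontal axis), with the mean and SD of 4 arrays. The orange band spans the array medians (5.07 to 5.11), and every point lies below it.

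That call was FRZB on 203698_s_at, whose signals were 2.63, 3.00, 3.03 and 2.73 in sibcat/siTAZ cells against 3.00, 3.07, 3.34 and 3.29 in control cells. The groups overlapped, and the difference was -0.33 ± 0.10 (SE, limma adjusted p = 0.0130). The call was lost without control replicate C (-0.27, adjusted p = 0.0511) and without sibcat/siTAZ replicate A (-0.26, adjusted p = 0.0576), and none of the other 3 FRZB probe sets was called. WIF1 had 3.16 on 1 sibcat/siTAZ array and between 2.32 and 2.80 on the other 3, and it was not called there. At signals this low, an absent transcript and a weakly expressed one cannot be told apart.

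**Figure D4:**
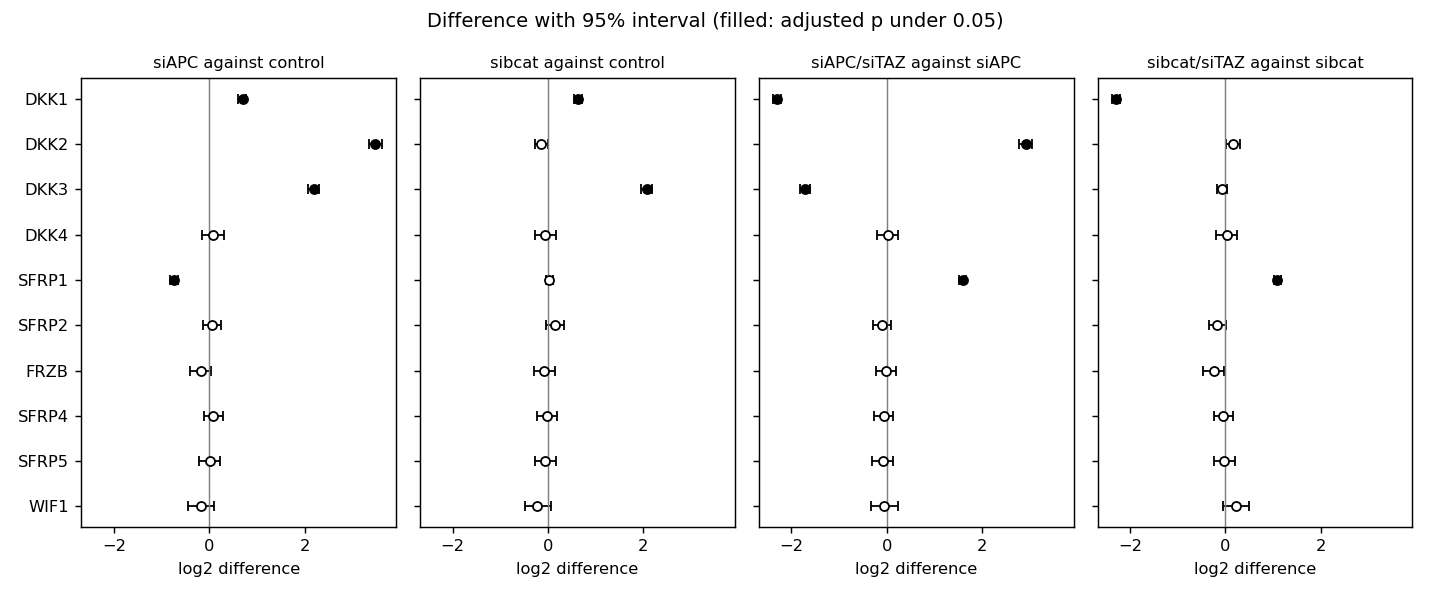
Log2 difference of the 10 genes (rows) in 4 comparisons (panels), with 95% intervals from limma, where filled points passed an adjusted p of 0.05. DKK1, DKK2, DKK3 and SFRP1 hold all the filled points, and the intervals of the other 6 genes all include 0 except that of FRZB in sibcat/siTAZ against sibcat, which was not called (adjusted p = 0.0772).

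Counted over the 10 genes, the share called was near or below the share among all genes in the 9 comparisons, so the counts are no result about these genes as a set. In siAPC against control cells, 3 of 10 rose and 1 fell, while 40.0% of all genes were called (21.3% higher, 18.7% lower). In sibcat against control cells, 2 rose and none fell, against 37.1% of all genes (21.4% higher, 15.7% lower), and these comparisons share the control arrays. In siAPC/siTAZ against siAPC cells, DKK2 and SFRP1 rose and DKK1 and DKK3 fell, and 43.5% of all genes were called (20.7% higher, 22.8% lower). In sibcat/siTAZ against sibcat cells, SFRP1 rose and DKK1 fell, against 31.7% of all genes (18.0% higher, 13.7% lower). Against control, siAPC/siTAZ cells had 3 genes higher and 1 lower, with 47.2% of all genes called (23.0% higher, 24.3% lower), and sibcat/siTAZ cells had 2 higher and 2 lower, with 44.9% called (25.4% higher, 19.5% lower). The median difference of the 10 genes lay between -0.05 and 0.07 over the 9 comparisons, and that of all genes between -0.04 and 0.00.

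Of the 10 genes, DKK2 and SFRP1 were called between siAPC and sibcat cells. The DKK2 signal in the beta-catenin-depleted groups may not be above background. DKK3 was not called between siAPC and sibcat cells on its chosen probe set (0.12, limma adjusted p = 0.0722). Its probe set 230508_at, tested alone, was called higher in siAPC cells (0.33, adjusted p = 0.00301). In siAPC against sibcat cells, DKK2 was 3.62 ± 0.07 higher (SE, limma adjusted p = 3.47e-18, averages 6.13 and 2.52) and SFRP1 differed by -0.76 ± 0.04 (adjusted p = 5.20e-12), 1 gene in each direction, where 33.8% of all genes were called (16.3% higher, 17.5% lower). In siAPC/siTAZ against sibcat/siTAZ cells, the differences were 6.36 for DKK2 (adjusted p = 4.42e-22), -1.52 for DKK3 (adjusted p = 3.83e-15) and -0.26 for SFRP1 (adjusted p = 8.00e-06). There 45.0% of all genes were called (20.8% higher, 24.2% lower). The test between the TAZ siRNA effects in both backgrounds called 3 of the 10 genes, 2 higher and 1 lower, where 27.7% of all genes were called (12.2% higher, 15.5% lower).

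Among the receptors and co-receptors of Wnt ligands, several moved in the same samples. Of 14 Wnt receptors and co-receptors measured, 4 rose and 6 fell in siAPC against control cells, and 4 rose and 2 fell in sibcat against control cells, where 40.0% and 37.1% of all genes were called. ROR1, a receptor for Wnt ligands, rose by 1.63 and 1.26 in these, and FZD2, a Frizzled receptor, by 1.27 and 1.13 (limma adjusted p = 3.87e-13 and 3.68e-12). Another Frizzled receptor, FZD10, fell by 2.08 in siAPC cells against control (adjusted p = 6.21e-11). With TAZ siRNA, 6 rose and 3 fell in APC-depleted cells, and 6 rose and 4 fell in beta-catenin-depleted cells, where 43.5% and 31.7% of all genes were called. FZD10 rose by 2.96 and 1.32 with TAZ siRNA in the 2 backgrounds, and FZD2 fell by 1.06 and 0.88. LRP6, the co-receptor that DKK1 binds, was 0.54 higher in siAPC/siTAZ cells and 0.56 higher in sibcat/siTAZ cells than in control cells (adjusted p = 4.66e-10 and 4.21e-10). Without TAZ siRNA, LRP6 was already 0.28 higher in sibcat cells than in control cells (adjusted p = 8.54e-06).

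Of 17 other secreted Wnt modulators and receptors for them, 1 rose and 4 fell in siAPC against control cells, and none rose and 5 fell in sibcat against control cells, both a smaller share than the 40.0% and 37.1% of all genes. Against control, KREMEN1, a receptor for DKK proteins, fell by 0.46 with siAPC and fell by 0.47 with sibcat (limma adjusted p = 5.80e-05 and 4.71e-05). It rose with TAZ siRNA by 0.90 in APC-depleted and 0.80 in beta-catenin-depleted cells (adjusted p = 6.78e-09 and 7.20e-08), as part of 4 rises and 2 falls in the first background and 4 rises and 1 fall in the second. Those counts were again a smaller share than the 43.5% and 31.7% of all genes. APCDD1, a membrane-bound Wnt inhibitor and beta-catenin target, rose by 0.85 in siAPC cells and fell by 0.88 in sibcat cells, both against control. It rose by a further 1.39 in siAPC/siTAZ against siAPC cells. Sclerostin (SOST), another LRP6 inhibitor, rose by 1.04 in sibcat/siTAZ against sibcat cells, to a signal of 4.03 that is below the array medians. Among 17 Wnt ligands measured, 2 rose and 2 fell in siAPC against control cells and 1 rose and 1 fell in sibcat against control cells, again smaller shares than among all genes. WNT5A rose by 0.49 and 0.42 there and had mean signals of 11.10 in siAPC, 11.03 in sibcat and 10.61 in control cells.

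The targets of the 2 pathways were counted in the same comparisons. Of 18 beta-catenin/TCF targets measured, 11 rose and 2 fell in siAPC against control cells, with a median difference of 0.70, and none rose and 9 fell in sibcat against control cells, with a median of -0.17. Over all genes, 40.0% (21.3% higher, 18.7% lower) and 37.1% (21.4% higher, 15.7% lower) were called in these comparisons, with a median of 0 in both. With TAZ siRNA in APC-depleted cells, 12 rose and 1 fell, with a median of 0.56, where 43.5% of all genes were called (20.7% higher, 22.8% lower). In beta-catenin-depleted cells, 7 rose and 2 fell with TAZ siRNA, with a median of 0.13. There 31.7% of all genes were called (18.0% higher, 13.7% lower). LEF1, a TCF-family factor, was 2.97 higher in siAPC cells than in control cells and rose by a further 1.23 with TAZ siRNA (limma adjusted p = 6.31e-14). Of 19 TEAD targets, 15 rose and 2 fell in each single depletion against control, with medians of 1.24 in siAPC and 1.04 in sibcat cells (40.0% and 37.1% of all genes were called). With TAZ siRNA, 1 rose and 16 fell in each background, with medians of -1.75 in siAPC/siTAZ against siAPC and -1.48 in sibcat/siTAZ against sibcat cells. Over all genes, 43.5% (20.7% higher, 22.8% lower) and 31.7% (18.0% higher, 13.7% lower) were called in these comparisons. In the same comparisons DKK1 changed by -2.30 and -2.29. The lists were drawn up with earlier results of these data known, and the depletions share control arrays. A link between the changes of these targets and those of the antagonists was not tested.

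The genes whose signals were most like those of each moving antagonist over the 20 arrays were found by Pearson r among the 2612 other genes whose group means spanned at least 1. For DKK1 they were PLAC8 (r = 0.997), ADM (0.995) and ARHGAP29 (0.992). ARHGAP29 averaged 9.59 in siAPC/siTAZ, 11.68 in siAPC, 9.77 in sibcat/siTAZ, 11.51 in sibcat and 11.16 in control cells. For DKK2 they were ATXN1 (0.994), ZNF503 (0.993) and CADPS (0.988). ZNF503 averaged 10.46 in siAPC/siTAZ, 9.55 in siAPC, 8.71 in sibcat/siTAZ, 8.60 in sibcat and 8.51 in control cells, a narrower range than that of DKK2. For DKK3 they were GIHCG (0.980), ZNF232-AS1 (0.970) and MME (0.970). SFRP1 was closest to IRX5 (0.990), LTBP1 (0.988) and IL31RA (0.984), and IRX5 averaged 9.54 in siAPC/siTAZ, 8.19 in siAPC, 10.02 in sibcat/siTAZ, 8.85 in sibcat and 8.86 in control cells. The arrays fall into 5 groups, so each r describes a likeness of group means and not an association within a group.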

How the data were processed

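Total RNA was labelled as biotinylated cRNA and hybridised to Affymetrix arrays, per the labels' protocols. The log2 signals deposited by the authors were made with RMA, per the submitters' processing notes, and the log2 scale was read from the values. No source used here gives the RMA software version. From these, 62 control probe sets were left out, and the 41091 probe sets with 1 gene symbol were kept (41037 matched a current gene by identifier). Each of 19775 genes was read from the probe set whose mean over 20 arrays was highest, with no filter on low values, so all 10 antagonist genes were tested. limma 3.58.1 in R 4.3.3 fitted group means with 15 residual and 3.39 prior degrees of freedom. Tests were two-sided and p-values were adjusted by Benjamini-Hochberg over all genes in each of 9 comparisons. The fit was tested on simulated data. The alternatives changed the probe set rule, low-signal filter, normalization, variance model, array weights, arrays in the fit and replicate block, or left out 1 array. Named genes were the 10 antagonists, siRNA targets, reporters, up to 4 genes per list and comparison with the smallest adjusted p, and the 3 most similar genes for each antagonist that was called and reached a group mean of 6. The members, lists, tests and motifs were chosen with earlier results of these data known. Promoter bases are from RefSeq.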

Additional observations from a re-analysis of the deposited data

Results flagged for a closer look

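The effect of TAZ siRNA differed between the APC-depleted and the beta-catenin-depleted cells for 3 of the 10 genes, by the interaction term of the limma fit. By the same term 27.7% of all genes were called, so the count is no result about these genes as a set. The difference was 2.75 for DKK2 (changes of 2.91 in siAPC/siTAZ against siAPC and 0.16 in sibcat/siTAZ against sibcat cells, adjusted p = 2.07e-13). For DKK3 it was -1.65 (changes of -1.71 and -0.07, adjusted p = 4.08e-12), and for SFRP1 it was 0.50 (changes of 1.60 and 1.09, adjusted p = 5.01e-07). In each of the 8 arrays of APC-depleted cells the direction holds without overlap between siAPC/siTAZ and siAPC. Among single probe sets, 202035_s_at of SFRP1 did not pass the interaction test (0.28, adjusted p = 0.143). The DKK3 probe set 230508_at fell by 1.31 in sibcat/siTAZ against sibcat cells, and its interaction difference was -1.10 (adjusted p = 2.82e-07). The DKK2 signals in sibcat/siTAZ and sibcat cells (2.68 and 2.52) may not be above background, so a change with TAZ siRNA there may not have been readable. The contrast also holds a deeper APC knockdown in siAPC/siTAZ (6.89) than in siAPC cells (7.34). It holds a deeper CTNNB1 knockdown in sibcat/siTAZ (9.20) than in sibcat cells (10.60). CTNNB1 also rose by 0.28 in siAPC/siTAZ against siAPC cells, and APC rose by 0.22 in sibcat/siTAZ against sibcat cells. The part of these APC and CTNNB1 differences was not tested. No array stood apart from its group by Dixon's test in any of the 50 sets of 4 arrays (10 genes in 5 groups).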

How the results depend on the processing

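Leaving aside probe sets tested on their own, 1482 of 1502 rechecks of the 10 genes stayed called or stayed uncalled. No difference called in either fit reversed its direction. Where neither fit called the gene, direction was not compared. For example, DKK2 in sibcat/siTAZ against sibcat cells was 0.16 in the main fit and -0.09 with the mean of its probe sets. That 0.16 was called with low-signal filters at 5 and 6 (limma adjusted p = 0.047 and 0.0372) and with only the compared groups (0.0432). DKK3 in siAPC against sibcat cells was called with these filters (0.0415 and 0.0324) and without sibcat replicate C (0.0141). DKK1 in siAPC/siTAZ against sibcat/siTAZ cells was called after a second quantile normalization (0.11, adjusted p = 0.0258). Of the 27 calls of DKK1, DKK2, DKK3 and SFRP1, 1 was lost: DKK3 in siAPC/siTAZ against control cells, at 0.04 with the mean of its probe sets (adjusted p = 0.491). That rule also added a DKK3 call in sibcat/siTAZ against sibcat cells (-0.23, adjusted p = 0.00101). Against control it gave DKK2 1.76 in siAPC and 3.03 in siAPC/siTAZ cells (3.48 and 6.39 on the chosen probe set), and DKK3 1.16 in siAPC, 1.04 in sibcat and 0.81 in sibcat/siTAZ cells (2.19, 2.07 and 2.00). It gave DKK2 1.27 and DKK3 -1.11 in siAPC/siTAZ against siAPC cells (2.91 and -1.71). Tested alone, 224199_at, with group means of only 2.44 to 2.82, reversed the DKK2 calls in siAPC/siTAZ against siAPC (-0.37) and against control cells (-0.32). It was also called lower in sibcat/siTAZ against sibcat (-0.34) and against control cells (-0.34), where 219908_at was not called (0.16 and 0.03). The probe set 230508_at reversed DKK3 in siAPC/siTAZ against control cells (-0.44). In sibcat/siTAZ against sibcat cells, 4 of the 10 genes instead of 2 were called when any probe set counted, and between 2 and 4 when 1 array was left out, with 4 (adding FRZB and WIF1) without sibcat/siTAZ replicate B. Over all features, testing probe sets alone called 10212 to 21134 of 54613, against 5480 to 9338 of 19775 genes, since more features were tested. Same-letter residuals correlated at a median of 0.027 (-0.09 to 0.16), with 8 of 40 pairs over 0.1, and 9 of 20 arrays matched their own letter best. No chance level was set for these values, so they do not decide whether the replicate letters pair the arrays. With the replicate block, FRZB was also called in sibcat/siTAZ against sibcat (-0.25, adjusted p = 0.0176) and in siAPC/siTAZ against control cells (-0.20, adjusted p = 0.0424), and the other member calls stood. The 6 genes of low signal were not testable with filters at 5 or 6. Signals near background limit any statement about them.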
